A study of Mus musculus with 9 samples.

Results

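Expression of 7 genes of neurotrophin signalling was examined in RNA from the medial prefrontal cortex (mPFC) of mice: the ligands Bdnf and Ntf3, the receptors Ntrk2, Ntrk3, Ngfr and Sort1, and the neuropeptide precursor Vgf. The members were chosen by gene symbol from the deposited table, and all 7 symbols were found among its 35125 rows with an NCBI gene identifier. Of these 7, 6 passed the filter of at least 0.5 FPKM in at least 3 of 9 libraries, which kept 14013 genes in all. FPKM is a count of fragments scaled by transcript length and by the mapped fragments of the library. Ngfr did not reach 0.5 FPKM in any library and was left out of the test.

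The 9 libraries form 3 groups of 3. The running model group is listed as exercise in the labels, and the series describes it as running in mice under chronic unpredictable stress. The CUS model group is listed as stressed, with no mention of exercise, and the control group as unstressed. All 3 groups carry the same terms for 4 weeks and for week 8, and the labels do not say to which treatment each belongs. The labels used here give no strain, sex or age, nor the number of animals behind a library, so the p-values measure the spread between libraries, which may be partly technical.

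Neurotrophins are secreted proteins that are made as longer precursors and cleaved by proprotein convertases. The mature forms act on Trk receptor tyrosine kinases, which signal through Ras and MAP kinase, PI3 kinase and phospholipase C, while the precursors bind the p75 receptor, encoded by Ngfr, together with sortilin, encoded by Sort1. In the cortex BDNF is known for its release from neurons with activity and for its role in synaptic plasticity. Its transcription starts at several separate promoters, some of which respond to calcium and CREB.

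The separate starts of Bdnf are shown because the table holds a single value for the gene and does not resolve them. The gene lies on the plus strand of chromosome 2 (109674700 to 109727043, GRCm38.p6), and RefSeq promoter windows, each 250 bases before to 50 bases after a start, were at hand for 7 Bdnf starts. The CRE half-site TGACG, a core to which CREB can bind, was searched on both strands, where the other strand reads CGTCA. It occurred in 1 of the 7 windows, the third, where the match begins 35 bases before the start. Of all 32851 windows of this length, 20.8% held it on at least 1 strand. The first window (chr2:109674450-109674749), the third (chr2:109692186-109692485) and the fourth (chr2:109692777-109693076) are given here 5′ to 3′, with the half-site in capitals.
Bdnf start 1: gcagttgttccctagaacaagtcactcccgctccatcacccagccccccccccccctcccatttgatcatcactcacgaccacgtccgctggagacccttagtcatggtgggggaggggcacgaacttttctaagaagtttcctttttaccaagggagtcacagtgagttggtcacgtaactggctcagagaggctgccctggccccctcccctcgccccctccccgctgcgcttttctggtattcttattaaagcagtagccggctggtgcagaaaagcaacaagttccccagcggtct
Bdnf start 3: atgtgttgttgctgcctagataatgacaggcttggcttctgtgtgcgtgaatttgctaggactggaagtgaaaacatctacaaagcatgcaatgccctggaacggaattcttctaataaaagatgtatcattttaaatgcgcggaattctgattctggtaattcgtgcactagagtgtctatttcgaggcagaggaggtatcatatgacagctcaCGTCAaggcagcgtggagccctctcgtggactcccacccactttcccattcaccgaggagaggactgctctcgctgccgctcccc
Bdnf start 4: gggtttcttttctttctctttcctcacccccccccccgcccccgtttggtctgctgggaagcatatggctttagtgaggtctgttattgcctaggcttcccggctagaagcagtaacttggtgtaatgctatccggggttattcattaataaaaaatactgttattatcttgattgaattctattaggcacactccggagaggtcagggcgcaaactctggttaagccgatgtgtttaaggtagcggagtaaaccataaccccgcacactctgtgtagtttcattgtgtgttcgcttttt
The half-site stands in the third window as the letters CGTCA, and the other 2 windows are in lower case throughout. The RefSeq table held 4 further windows of the members, 1 of Ntrk2, 2 of Ntf3 and 1 of Ngfr, and none of these 4 held the half-site. A match of letters is no evidence of binding, and a window with no match says nothing of the factor.

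The other members lie on 6 chromosomes of GRCm38.p6. Ntrk2 is on chromosome 13 (58806472 to 59133970), Ntf3 on chromosome 6 (126101412 to 126166772) and Ntrk3 on chromosome 7 (78179986 to 78581034). Ngfr is on chromosome 11 (95568818 to 95587698), Sort1 on chromosome 3 (108283974 to 108361519) and Vgf on chromosome 5 (137025301 to 137033351). GENCODE M21 lists 11 coding transcripts of Bdnf, 7 of Ntrk2 and 6 of Ntrk3. The deposited table has 1 value per gene, so the full-length and truncated forms of TrkB and TrkC, the proteins of Ntrk2 and Ntrk3, cannot be told apart. The protocol names no step that marks strand, so reads from either strand of a locus cannot be told apart. The lncRNA gene Gm39038 overlaps Ntrk3 on the same strand and was listed at 0 in all libraries. The lncRNA gene Gm53063 overlaps Ntrk2, on a strand that GENCODE M21 did not give, and was not analysed here.

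The summed FPKM of a library lay between 370441 and 423257, with the highest sum in CUS replicate 3, whose log2 values also had the lowest mean correlation with the other libraries (0.987, against 0.990 to 0.993). Cortical neuron markers were present in every library, with Slc17a7 at 696 to 768 FPKM and Tbr1 at 38.0 to 51.2 FPKM. Control replicate 3 stood apart in 2 marker lists, with 212 FPKM of the choroid plexus transcript Ttr against at most 38.8 in the other libraries, and with the highest summed level of oligodendrocyte markers (1187 FPKM, against at most 711 FPKM in the other libraries). All 7 oligodendrocyte markers were below control in both other groups, and none was called. The median log2 difference was -0.46 in running, with 2 of 7 at an unadjusted p under 0.05, against 6.47% of all genes lower. In CUS it was -0.53, with 5 of 7, against 5.79% of all genes lower. Control replicates 1 and 2 had summed levels of 638 and 680 FPKM, against 561 to 633 FPKM in running and 485 to 711 FPKM in CUS. The part of these markers in the members' differences from control was not tested. In bulk tissue, fewer cells of a type and less RNA per cell cannot be told apart.

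Per kilobase, Vgf was the most abundant member and Ngfr the least. Over the 9 libraries Vgf lay between 146 and 209 FPKM, Ntrk2 between 81.4 and 102 FPKM, Sort1 between 72.1 and 103 FPKM and Ntrk3 between 27.9 and 31.8 FPKM. Bdnf lay between 8.23 and 14.4 FPKM, Ntf3 between 0.62 and 1.67 FPKM and Ngfr between 0.18 and 0.44 FPKM. The ranges of Ntrk2 and Sort1 overlapped, and those of all other neighbours in this order did not. The coefficient of variation over the libraries was smallest for Ntrk3 (4.35%) and largest for Ntf3 (33.9%) and Ngfr (33.8%).

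**Figure D1:**
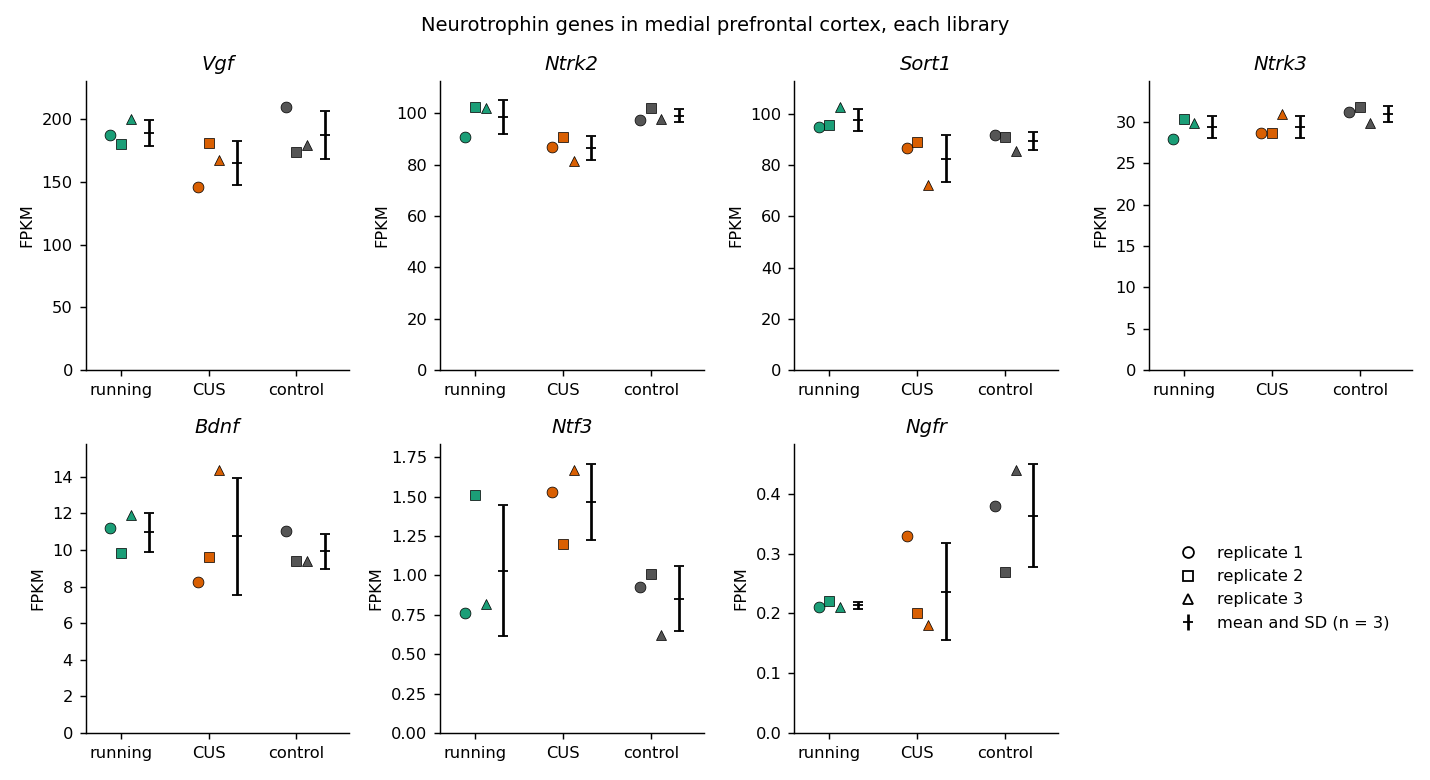
Level of each of the 7 genes in FPKM (vertical axis, from 0) in running, CUS and control libraries, 1 symbol per library, with the mean and SD of 3 libraries beside them. Ntrk2 is lower and Ntf3 higher in all 3 CUS libraries than in all 3 controls, and Bdnf is highest in CUS replicate 3 at 14.4 FPKM.

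The first comparison, CUS against control, asks how chronic unpredictable stress changes these genes. Ntrk2 was lower and Ntf3 higher in every CUS library than in any control, and the other 4 tested members overlapped between the groups. None of the 6 tested members was called at a limma adjusted p under 0.05, where 1 of 14013 genes was called (0.00714%). At an unadjusted p under 0.05 there were 2 of 6 members, against 14.7% of all genes. Of these, 1 was higher, as were 8.9% of all genes, and 1 was lower, as were 5.79% of all genes. Groups without overlap were found for 2 of 6 members, against 19.7% of all genes. Again 1 was higher, against a background of 12.1%, and 1 lower, against a background of 7.6%. The members' share rests on 2 genes.

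Ntrk2 encodes TrkB, the receptor of BDNF, which neurons carry in a full-length form with a kinase and astrocytes mainly in a truncated form without one. It had 87.0, 90.7 and 81.4 FPKM in CUS libraries, against 97.5, 102 and 97.8 FPKM in controls. The highest CUS library lay below the lowest control. The mean was 12.8% below that of controls, with a log2 difference of -0.20 (SE 0.0649, 95% interval -0.34 to -0.05, limma adjusted p = 0.267). Over 19 alternative settings this difference lay between -0.26 and -0.16, with limma adjusted p between 0.106 and 0.540. Without control replicate 3, the library highest in oligodendrocyte markers, it was -0.21. Of 8 astrocyte markers, 7 were lower in CUS (median log2 difference -0.13), where 44.1% of all genes were. Their summed level lay between 728 and 817 FPKM in CUS and between 761 and 850 FPKM in controls, with no marker at 0. Their part in the Ntrk2 difference was not tested.

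Ntf3 encodes neurotrophin-3, the preferred ligand of TrkC. It had 1.53, 1.20 and 1.67 FPKM in CUS libraries, against 0.93, 1.01 and 0.62 FPKM in controls. The 3 CUS libraries were all above the 3 controls, at levels close to the filter. The mean was 71.9% above that of controls, with a log2 difference of 0.54 (SE 0.191, 95% interval 0.12 to 0.96, limma adjusted p = 0.276). Over 18 alternatives it lay between 0.41 and 0.73, with limma adjusted p between 0.118 and 0.540, and the lowest value, 0.41, came without control replicate 3.

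Markers of meningeal fibroblasts, which cover the cortical surface, were read beside Ntf3. All 6 such markers, among them Dcn and Igf2, had a higher mean log2 level in the CUS group than in control, where 55.9% of all genes did. These 6 markers had log2 differences from 0.0019 to 0.48 (median 0.14), none at an unadjusted p under 0.05 and none called. Their summed level lay between 29.3 and 53.7 FPKM in CUS, against 26.3 to 41.2 FPKM in controls, and none was at 0. Their mean deviation was highest in CUS replicate 3 (0.45), where Ntf3 was also highest, and the next highest was that of running replicate 2 (0.36), the library with the highest Ntf3 of its group. It was lowest in running replicate 3 (-0.48) and control replicate 3 (-0.26), where Ntf3 was at 0.82 and 0.62 FPKM. The markers and Ntf3 parted in CUS replicate 2, where the markers were low (-0.15) and Ntf3 was at 1.20 FPKM, and in control replicate 1, where the markers were high (0.15) and Ntf3 was at 0.93 FPKM. Microglial markers were also higher in CUS than in control, all 6 of them (median log2 difference 0.12), and none was called. Of these, 2 had an unadjusted p under 0.05, against 8.9% of all genes higher at that level. The mean deviation of the microglial markers too was highest in CUS replicate 3 (0.17). The part of either cell type in the Ntf3 values was not tested.

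**Figure D2:**
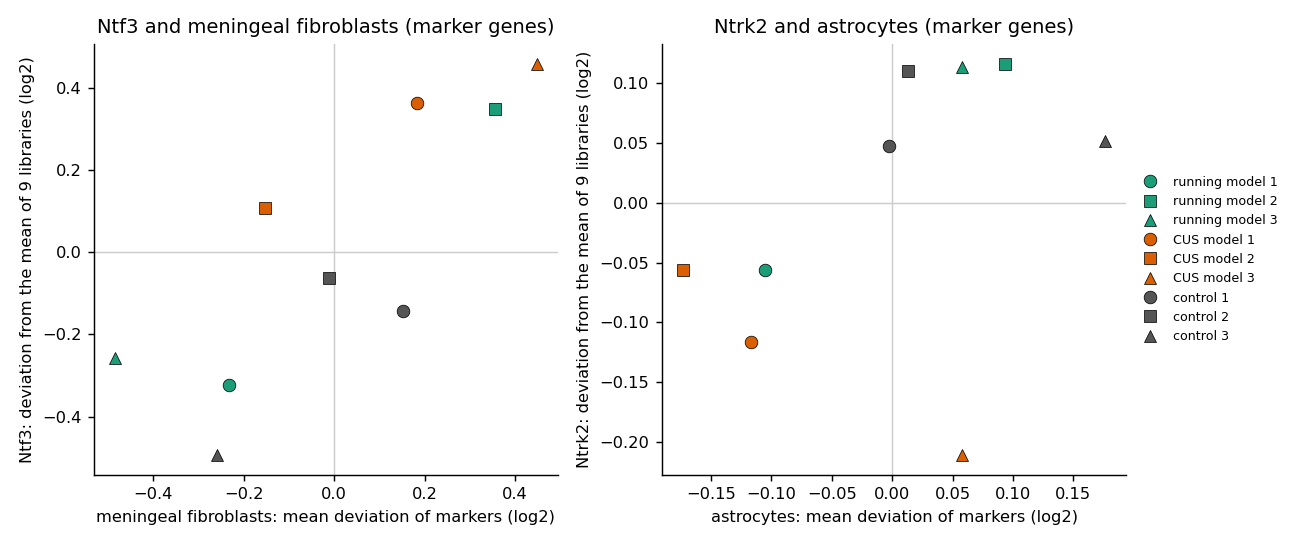
Deviation of Ntf3 (left) and Ntrk2 (right) from its mean over 9 libraries, on the vertical axis, against the mean deviation of 6 meningeal fibroblast markers or 8 astrocyte markers, on the horizontal axis, both in log2 units, 1 symbol per library. CUS replicate 3 has the highest Ntf3 and the highest meningeal score, and the lowest Ntrk2 with an astrocyte score of 0.06.

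Bdnf, the ligand of TrkB, had 8.23, 9.63 and 14.4 FPKM in CUS libraries, against 11.03, 9.39 and 9.38 FPKM in controls. CUS libraries held both the lowest and the highest value of the 9. The log2 difference was 0.07 with a wide interval (-0.29 to 0.44, SE 0.164, limma adjusted p = 0.837). Its sign rested on CUS replicate 3, since without that library the difference was -0.15 (limma adjusted p = 0.647).

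Vgf encodes a precursor of secreted peptides that neurotrophins induce. It had 146, 181 and 167 FPKM in CUS libraries, against 209, 174 and 179 FPKM in controls. CUS replicate 2 lay above 2 of the 3 controls. The log2 difference was -0.19 (SE 0.0931, 95% interval -0.39 to 0.02, limma adjusted p = 0.363), and it was -0.10 without CUS replicate 1 or without control replicate 1, and -0.30 with library quality weights. Sort1, the sorting receptor that binds proneurotrophins with p75, had 86.6, 89.0 and 72.1 FPKM in CUS libraries, against 91.9, 90.9 and 85.5 FPKM in controls. Its log2 difference of -0.12 (limma adjusted p = 0.461) was -0.026 without CUS replicate 3, -0.19 after rescaling to TPM and -0.0010 once a trend on length and GC was taken out. Ntrk3, which encodes TrkC, had 28.6, 28.6 and 30.9 FPKM in CUS libraries, against 31.2, 31.8 and 29.9 FPKM in controls. Its log2 difference was -0.07, with an interval of -0.20 to 0.05 (limma adjusted p = 0.534), and -0.14 after rescaling to TPM.

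Ngfr, the p75 receptor, had 0.33, 0.20 and 0.18 FPKM in CUS libraries, against 0.38, 0.27 and 0.44 FPKM in controls. CUS replicate 1 lay between the controls. An exact two-sided permutation test on log2(FPKM + 0.5) gave p = 0.2, where 3 libraries against 3 cannot give less than 0.1. With no filter, over 18742 genes, the log2 difference was -0.23 (SE 0.0956, limma adjusted p = 0.3865). Of 6 markers of mural cells, all 6 were lower in CUS, where 44.1% of all genes were. The median log2 difference was -0.21, with no call. Their summed level lay between 53.2 and 73.8 FPKM in CUS, against 67.4 to 72.0 FPKM in controls. Their mean deviation was highest in control replicate 2 (0.21), which had the lowest Ngfr of the controls. Ngfr was highest in control replicate 3, the library highest in oligodendrocyte markers. All 7 oligodendrocyte markers (median -0.53) and 4 of 5 endothelial markers (median -0.14) were lower in CUS too, while all 6 microglial markers were higher. The part of any of these cell types in the Ngfr values was not tested.

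The second comparison, running against CUS, asks what running does in stressed mice. Sort1 and Ntrk2 were higher in every running library than in any CUS library, and Vgf leaned the same way with an overlap. None of the 6 tested members was called, where 1 of 14013 genes was (0.00714%). At an unadjusted p under 0.05 there were 2 of 6 members, against 23.5% of all genes. Both were higher, as were 7.74% of all genes, and 0 were lower, against 15.7% of all genes. The groups did not overlap for 2 of 6 members, against 24.9% of all genes. Both were again higher, as were 8.99% of all genes, and 0 were lower, against 15.9% of all genes. This comparison and the first share the CUS libraries, so that a value high or low in them moves both differences, in opposite directions.

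Sort1 had 94.9, 95.5 and 103 FPKM in running libraries, against 86.6, 89.0 and 72.1 FPKM in CUS libraries. All 3 running libraries were above all 3 CUS libraries, and CUS replicate 3 was the lowest. The mean was 18.3% higher, with a log2 difference of 0.25 (SE 0.0793, 95% interval 0.07 to 0.42, limma adjusted p = 0.114). It passed the threshold without CUS replicate 2 (0.30, limma adjusted p = 0.0435), a fit that called 1518 of 14013 genes, and with library quality weights (0.20, limma adjusted p = 0.0364), which called 2178. The difference was 0.15 without CUS replicate 3 and 0.073 once a fitted trend on length and GC had been taken out (limma adjusted p = 0.398).

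Ntrk2 had 90.7, 102 and 102 FPKM in running libraries, against 87.0, 90.7 and 81.4 FPKM in CUS libraries. Running replicate 1 and CUS replicate 2 met at 90.70 and 90.67 FPKM, so the groups were separated by 0.03 FPKM. The mean was 13.9% higher, with a log2 difference of 0.19 (SE 0.0649, 95% interval 0.04 to 0.33, limma adjusted p = 0.132). With library quality weights it was 0.18 (limma adjusted p = 0.0455), and with the length and GC trend removed it was 0.12. After rescaling to TPM it was 0.29. Of the 8 astrocyte markers, 7 were higher in running (median 0.085), where 42.2% of all genes were. Their summed level lay between 727 and 825 FPKM in running, against 728 to 817 FPKM in CUS, and their part in the Ntrk2 difference was not tested.

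Vgf had 187, 180.2 and 200.5 FPKM in running libraries, against 146, 181 and 167 FPKM in CUS libraries. CUS replicate 2 lay just above running replicate 2, and the other running libraries were above all CUS libraries. The log2 difference was 0.20 (SE 0.0931, 95% interval -0.0017 to 0.41, limma adjusted p = 0.216). It was 0.12 without CUS replicate 1 and 0.33 with library quality weights (limma adjusted p = 0.0322). It was 0.33 with quantile normalization and 0.31 after rescaling to TPM, neither past the threshold.

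Ntf3 had 0.76, 1.51 and 0.82 FPKM in running libraries, against 1.53, 1.20 and 1.67 FPKM in CUS libraries. Running replicate 2 lay within the CUS range, and the other 2 running libraries were below it. The log2 difference was -0.39 (SE 0.191, 95% interval -0.81 to 0.03, limma adjusted p = 0.244), and without running replicate 2 it was -0.60. The summed level of meningeal markers lay between 22.0 and 44.6 FPKM in running, against 29.3 to 53.7 FPKM in CUS. Of the 6, 5 were lower in running (median -0.32), where 57.8% of all genes were. All 6 microglial markers were lower in running as well (median -0.13). The part of either cell type in the Ntf3 difference was not tested.

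Bdnf had 11.2, 9.83 and 11.9 FPKM in running libraries, against 8.23, 9.63 and 14.4 FPKM in CUS libraries. The running values lay inside the CUS range. The log2 difference was 0.06 (95% interval -0.30 to 0.42, limma adjusted p = 0.848), 0.28 without CUS replicate 3, -0.10 without CUS replicate 1 and 0.34 with library quality weights. Ntrk3 had 27.9, 30.4 and 29.8 FPKM in running libraries, against 28.6, 28.6 and 30.9 FPKM in CUS libraries. Its difference was 0.00 on the log2 scale, with an interval of -0.13 to 0.13, and its sign turned when single libraries were left out. Ngfr had 0.21, 0.22 and 0.21 FPKM in running libraries, against 0.33, 0.20 and 0.18 FPKM in CUS libraries, with an overlap.

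**Figure D3:**
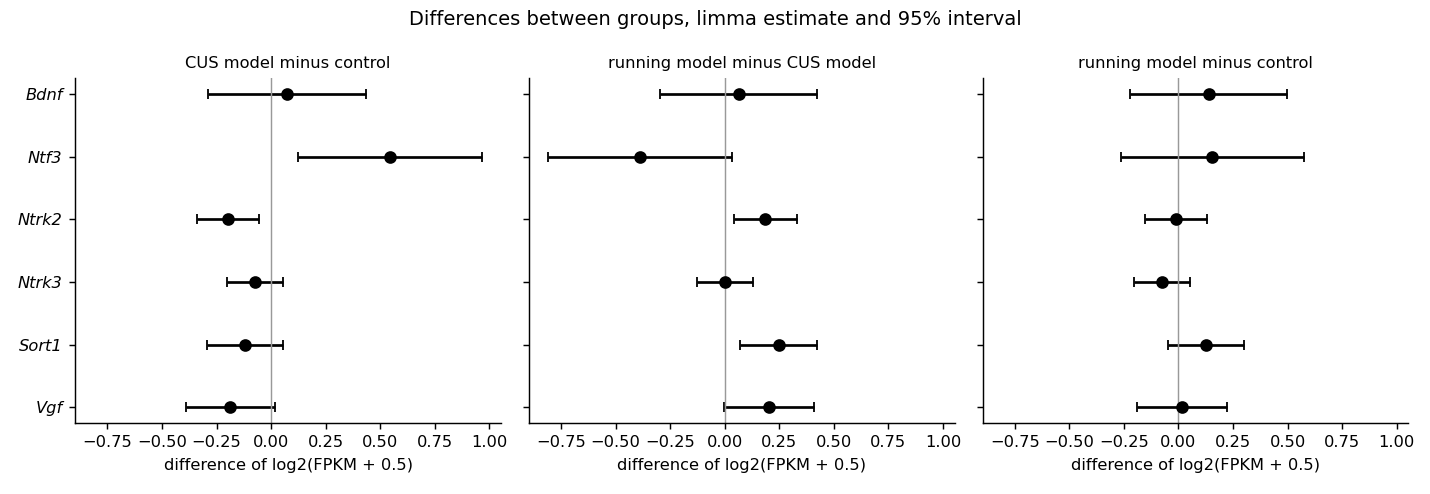
Differences of log2(FPKM + 0.5) for the 6 tested members in 3 comparisons (horizontal axis), as limma estimates with 95% intervals that are not adjusted for the number of genes. The interval of Ntrk2 lies below 0 in CUS minus control (-0.34 to -0.05) and above 0 in running minus CUS (0.04 to 0.33), and no member passed the adjusted threshold.

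The third comparison, running against control, asks how far running mice differ from unstressed mice. None of the 6 tested members was called, where 3 of 14013 genes were (0.0214%, of which 0.0143% higher and 0.00714% lower). None of the 6 had an unadjusted p under 0.05, against 11.6% of all genes (5.15% higher and 6.47% lower). The groups did not overlap for 1 of 6, against 22.4% of all genes. This was Sort1, which was higher, as were 10.5% of all genes, while 11.9% were lower. The comparison shares its running libraries with the second and its controls with the first. Sort1 had 94.9, 95.5 and 103 FPKM in running libraries, against 91.9, 90.9 and 85.5 FPKM in controls. The mean was 9.21% higher, with a log2 difference of 0.13 (95% interval -0.05 to 0.30, limma adjusted p = 0.571), and 0.072 with the length and GC trend removed. Without control replicate 3 it was 0.094.

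Ntrk2 averaged 98.3 ± 6.62 FPKM in running and 99.0 ± 2.43 FPKM in controls (SD, n = 3 each), and the log2 difference of -0.01 had an interval of -0.16 to 0.13 and turned positive under some settings. Vgf averaged 189 ± 10.3 FPKM in running and 187 ± 19.2 FPKM in controls, with an interval of -0.19 to 0.22 on the log2 scale. Bdnf averaged 10.98 ± 1.06 FPKM in running and 9.93 ± 0.950 FPKM in controls, with an interval of -0.22 to 0.50. Ntrk3 averaged 29.4 ± 1.28 FPKM in running and 30.9 ± 0.979 FPKM in controls, with an interval of -0.20 to 0.05. Ntf3 averaged 1.03 ± 0.417 FPKM in running and 0.853 ± 0.206 FPKM in controls, and its difference of 0.16 became -0.058 without running replicate 2. For these 5 genes the interval held 0, which does not show that the groups were alike.

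Ngfr had 0.21, 0.22 and 0.21 FPKM in running libraries, against 0.38, 0.27 and 0.44 FPKM in controls. All 3 running libraries were below all 3 controls (exact two-sided permutation test p = 0.1, the smallest this design allows). Among the tested genes 11.9% were lower without overlap. In a fit without a filter, over 18742 genes, the log2 difference was -0.27 (SE 0.0956, limma adjusted p = 0.385). The depth behind values of this size is unknown. All 6 mural markers were lower in running than in controls (median -0.21), where 56.2% of all genes were. Their summed levels were 52.7 to 68.5 FPKM in running, against 67.4 to 72.0 FPKM in controls. Other markers were also lower in running than in controls: all 7 of oligodendrocytes (median -0.46), all 5 of endothelium (-0.23) and all 6 of oligodendrocyte precursors (-0.17). Higher in running were 5 of 8 astrocyte markers and 4 of 6 excitatory neuron markers. The part of any of these cell types in the Ngfr difference was not tested.

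Bdnf and Vgf are both known as genes that neuronal activity induces, and 5 immediate early genes, which respond to activity within minutes, were read beside them. Fos had 21.7, 24.3 and 24.3 FPKM in running, 11.4, 8.75 and 5.86 FPKM in CUS and 23.6, 12.1 and 23.0 FPKM in controls. Arc, which encodes a synaptic protein, had 123, 137 and 139 FPKM in running, 42.3, 57.0 and 30.3 FPKM in CUS and 115, 49.3 and 122 FPKM in controls. CUS replicate 3 had the lowest Fos, Arc and Npas4 of the 9 libraries and the highest Bdnf. It is 1 library, the one with the lowest mean correlation with the others (0.987). Egr1 and Nr4a1 were lowest in CUS replicate 1, at 82.8 and 36.8 FPKM, against 84.2 and 38.5 FPKM in CUS replicate 3. CUS replicate 1 also had the lowest Bdnf, at 8.23 FPKM. Npas4, a transcription factor of activity that acts on Bdnf promoters, had 5.71 FPKM in CUS replicate 3 and 11.4 to 28.7 FPKM in the other 8 libraries.

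The lowest Vgf of the 9 was in CUS replicate 1, and the highest was in control replicate 1, where Npas4 was also highest. In CUS replicate 1 Npas4 was at 19.5 FPKM, above the other CUS libraries and all 3 running libraries. Control replicate 2, with low Fos (12.1 FPKM) and Arc (49.3 FPKM), had the lowest Vgf of the controls, at 174 FPKM. CUS replicate 2 had 181 FPKM of Vgf, within the range of the running libraries, with Fos at 8.75 FPKM. Of 20 immediate early genes, 19 were below control in CUS and 20 above CUS in running, with median log2 differences of -0.58 and 0.73. None was called. An unadjusted p under 0.05 was found for 17 lower genes in CUS, against 5.79% of all genes, and for 18 higher genes in running, against 7.74% of all genes. The log2 differences of Vgf in the same comparisons were -0.19 and 0.20, and those of Bdnf were 0.07 and 0.06. Whether these differences between genes exceed their error was not tested.

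**Figure D4:**
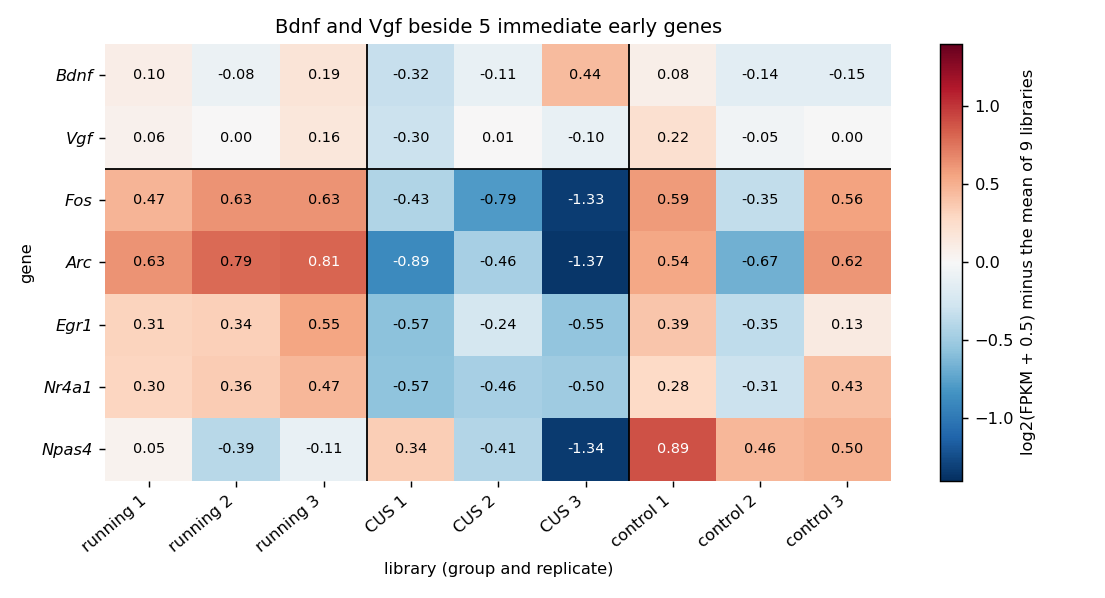
Deviation of log2(FPKM + 0.5) from the mean of 9 libraries (colour and printed value) for Bdnf, Vgf and 5 immediate early genes, with libraries in columns. CUS replicate 3 combines the highest Bdnf (0.44) with the lowest Fos (-1.33), Arc (-1.37) and Npas4 (-1.34). This library also had the lowest mean correlation with the others.

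Beyond the members, 109 genes of the pathway were listed by role, and 100 of them were tested. None was called in any comparison. In CUS against control 12 of 100 had an unadjusted p under 0.05, where all genes gave 14.7%. Of these, 5 were higher (8.9% of all genes) and 7 lower (5.79% of all genes). In running against CUS there were 26 of 100, where all genes gave 23.5%. Here 14 were higher, against 7.74% of all genes, and 12 lower, against 15.7%. In running against control there were 12 of 100, where all genes gave 11.6%. Of these, 9 were higher, against 5.15% of all genes, and 3 lower, against 6.47%. Summed over both directions the shares lay near the background, while in both comparisons of running more of these genes were higher, and fewer lower, than among all genes. Both comparisons share the running libraries, and the lists were chosen with earlier results of these data known.

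Of 9 tested receptors and sorting receptors, the members included, 8 were lower in CUS (median -0.080 against control), where 44.1% of all genes were. In running, 8 of the 9 were higher (median 0.080 against CUS), where 42.2% of all genes were. Rtn4r, the Nogo receptor that can pair with p75, was the one above controls, at 77.2 ± 4.46 FPKM in CUS and 67.7 ± 1.08 FPKM in controls (log2 0.19, limma adjusted p = 0.260). Sorl1, a relative of sortilin, had 42.4 ± 4.31 FPKM in running and 33.8 ± 3.79 FPKM in CUS (log2 0.32, limma adjusted p = 0.0998). Against control its difference was 0.20. The 2 medians share the CUS libraries. In running against control 5 of the 9 receptors were higher, where 43.8% of all genes were, and 4 were lower (median 0.00056).

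Of 9 tested genes of precursor processing, 7 had a lower mean log2 level in CUS (median difference -0.084, 44.1% of all genes lower), none at an unadjusted p under 0.05. The smallest p values were those of Plat, tissue plasminogen activator (log2 -0.16), and Pcsk1, a convertase of secretory granules (log2 -0.14). Furin, the convertase of the secretory pathway that cleaves proneurotrophins, averaged 9.63 ± 0.981 FPKM in running, 8.08 ± 0.432 FPKM in CUS and 8.42 ± 0.430 FPKM in controls. Every running library was above every library of either other group (log2 0.24 against CUS, limma adjusted p = 0.128, and 0.18 against control, limma adjusted p = 0.427). Pcsk5, a related convertase, was lower in running, with 2.50 ± 0.182 FPKM, against 3.50 ± 0.172 FPKM in controls (log2 -0.42, limma adjusted p = 0.253). Against CUS its difference was -0.33.

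Of 11 genes of dense core vesicles, 1 of them Vgf, none passed. Chgb, a granin, had 146 ± 12.7 FPKM in CUS and 164 ± 10.8 FPKM in controls (log2 -0.17). In running it had 175 ± 5.32 FPKM, above every CUS library (log2 0.26, limma adjusted p = 0.0952). Pcsk1n, which encodes an inhibitor of the Pcsk1 convertase, was lower in running, with 337 ± 17.1 FPKM in running and 409 ± 28.0 FPKM in CUS (log2 -0.28, limma adjusted p = 0.0845). Against control Pcsk1n and the granin Scg3 had differences of -0.15 and -0.090.

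Among 21 adaptors and effectors of Trk receptors, the 2 receptors included, 13 were lower in CUS than in controls, where 44.1% of all genes were. In running 14 were higher than in CUS, where 42.2% of all genes were. Kidins220, a scaffold that Trk receptors phosphorylate, had 40.4 ± 6.34 FPKM in CUS and 46.8 ± 2.26 FPKM in controls (log2 -0.22, limma adjusted p = 0.329). The groups overlapped, and CUS replicate 3 was lowest at 33.1 FPKM, against 42.9 and 45.0 FPKM in CUS replicates 1 and 2. Sos1, the exchange factor that loads Ras, had 6.93 ± 0.0800 FPKM in running, 5.90 ± 0.229 FPKM in CUS and 6.07 ± 0.232 FPKM in controls. Its log2 differences were 0.22 against CUS and 0.18 against control (limma adjusted p = 0.101 and 0.333). Crkl, an adaptor, had 12.7 ± 0.356 FPKM in running and 10.5 ± 0.441 FPKM in controls (log2 0.26, limma adjusted p = 0.182).

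In the kinase cascade, 18 of 25 genes were higher in CUS than in controls, where 55.9% of all genes were. Mapk3, which encodes the kinase ERK1, had 116 ± 15.1 FPKM in running, 143 ± 12.5 FPKM in CUS and 112 ± 5.65 FPKM in controls. It was higher in every CUS library than in any control (log2 0.35, limma adjusted p = 0.253), and its difference between running and CUS was -0.30 with an overlap. Rps6ka3, a kinase downstream of ERK, had a difference of -0.17 in CUS against control. Hras differed by -0.21 between running and CUS (limma adjusted p = 0.0963), and Pik3ca and Pdpk1, of the PI3 kinase arm, by 0.15 and 0.13 between running and control.

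Of 12 partners of p75 signalling, 8 were lower in running than in CUS, where 57.8% of all genes were. Bex3, which binds the p75 receptor, had 147 ± 9.89 FPKM in running, 180.2 ± 14.4 FPKM in CUS and 161 ± 8.81 FPKM in controls. Its log2 differences were -0.29 for running against CUS (limma adjusted p = 0.0877), 0.16 for CUS against control and -0.13 for running against control. Its relative Bex1 had -0.25 against CUS and -0.15 against control, and Rhoa, a GTPase downstream of p75, had 0.10 in CUS against control.

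Among 18 tested regulators of Bdnf transcription, 9 were lower in CUS than in controls, where 44.1% of all genes were. In running 12 were higher than in CUS, where 42.2% of all genes were. Bhlhe40, a repressor that responds to activity, had 71.7 ± 3.62 FPKM in running, 54.8 ± 5.69 FPKM in CUS and 46.0 ± 4.75 FPKM in controls. It was above every library of both other groups in running (log2 0.39 against CUS and 0.64 against control, limma adjusted p = 0.0776 and 0.0586). Npas4 had 13.8 ± 2.16 FPKM in running, 12.2 ± 6.93 FPKM in CUS and 23.9 ± 4.17 FPKM in controls. Both stress-exposed groups were below every control (log2 -0.76 in running and -1.08 in CUS, limma adjusted p = 0.404 and 0.260). Of the kinases upstream of CREB, Camkk2 had 52.4 ± 2.55 FPKM in CUS and 62.2 ± 0.596 FPKM in controls (log2 -0.25, limma adjusted p = 0.260). Camk4 had 17.7 ± 1.57 FPKM in running and 14.3 ± 0.627 FPKM in CUS (log2 0.29, limma adjusted p = 0.0832).

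**Figure D5:**
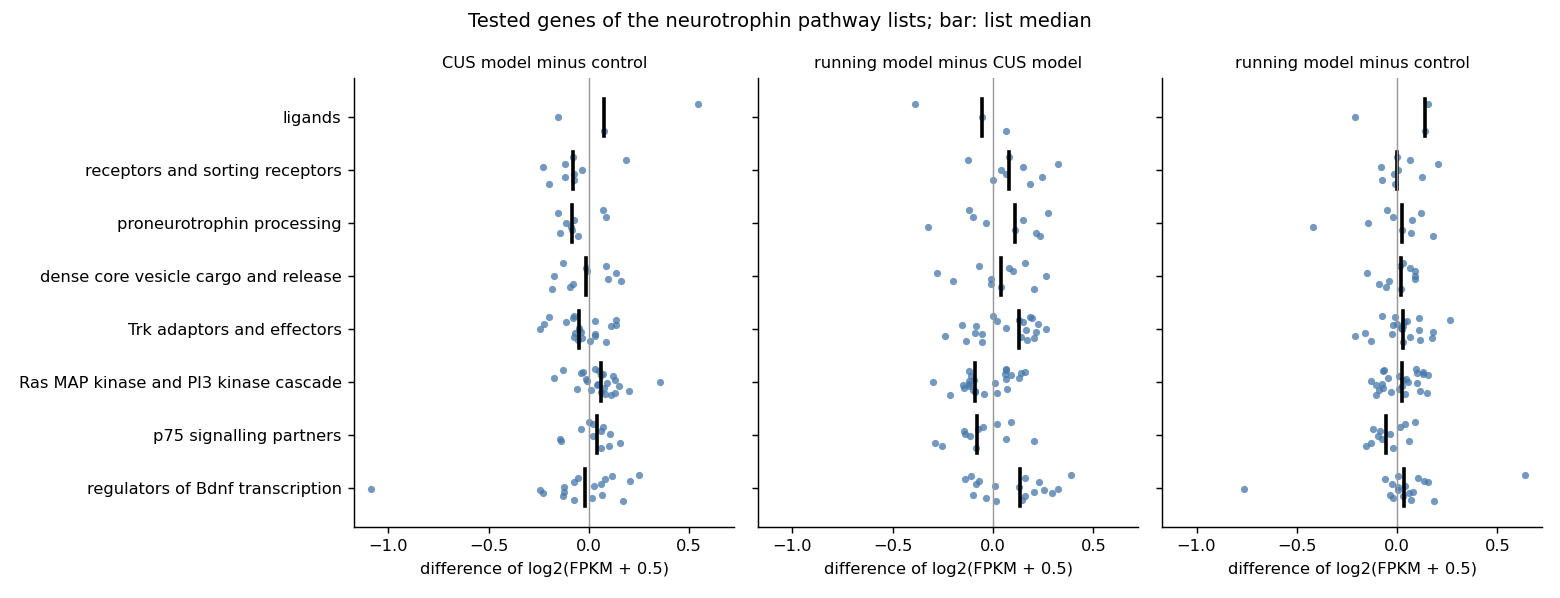
Difference of log2(FPKM + 0.5) (horizontal axis) of each tested gene in 8 lists of the neurotrophin pathway, members included, 1 point per gene and a bar at the list median, for 3 comparisons. No point passed the adjusted threshold. The 9 receptors have medians of -0.080 in CUS minus control and 0.080 in running minus CUS, which share the CUS libraries. In running minus control their median is 0.00056.

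The genes most like each member in profile were taken as those with the highest Pearson r over the 9 libraries among 9050 genes with a mean of at least 5 FPKM, or 9051 for Ntf3, after genes with provisional names were set aside. These values are the highest of many and share libraries and groups, so they describe the profiles only. For Bdnf they were Arhgap15 (r = 0.966), Dusp14 (0.958) and Cop1 (0.940), and for Vgf they were Mical2 (0.957), Cx3cl1 (0.937) and Ap3b1 (0.932). For Ntrk2 they were Myorg (0.961), Nwd1 (0.956) and Arid1b (0.947), and for Ntf3 Ctbp2 (0.920), Nrsn2 (0.916) and Adra2c (0.915). Sort1 had the closest matches, Scn8a (0.991), Frrs1l (0.989) and Magi2 (0.983), and Ntrk3, which varied least, the loosest, Rasa2 (0.830), Cd2ap (0.824) and Grm5 (0.821).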

How the data were processed

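Per the labels' protocols, RNA from Trizol extraction was selected on oligo(dT) beads, primed with random hexamers and circularised. Bowtie2 2.2.5, RSEM 1.2.12, DESeq2 1.4.5 and build mm10 are named, without roles, per the submitters' processing notes. Their annotation release is not stated. The authors deposited FPKM values rounded to 2 decimals, whose read depth is unknown, so no counting interval was given. All 30264 other rows of the 65389 in the table, of circular RNA, microRNA and provider identifiers, were at 0.

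Values were tested as log2(FPKM + 0.5), a scale that understates the change of low genes, with limma 3.58.1 in R 4.3.3. A single model held all 9 libraries and no covariate, with the variance prior following mean expression. P-values were adjusted over 14013 genes by Benjamini-Hochberg, and genes under 0.05 were called. The code was checked on simulated data. Alternatives were pseudocount, filter, scaling, library weights, a length and GC trend from GENCODE M21 (13751 genes) and leaving out each library. Figures used matplotlib 3.10.9.

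The members and gene lists were chosen with earlier results of these data known. All 7 members were named, and from each pathway list the called genes or else the 2 with the smallest p in a comparison; some of these are not reported here. Replicate numbers follow the order of listing and pair nothing. Sequences and coordinates are from RefSeq on GRCm38.p6, the assembly behind mm10.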

Additional observations from a re-analysis of the deposited data

How the results depend on the processing

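No paired analysis was possible because replicate numbers follow only the order of listing. Over 18 member comparisons and 339 alternative fits, 320 kept the direction and the side of the threshold. The 4 that became called were Sort1, Ntrk2 and Vgf in running against CUS with library quality weights, and Sort1 without CUS replicate 2. The other 15 reversed direction. No member had been called in any of the 18 comparisons, so these could only be differences that had not passed. Bdnf in CUS against control was -0.17 with library quality weights and -0.15 to 0.24 when a library was left out, and in running against CUS it was -0.10 to 0.28 when a library was left out. For Ntrk2 in running against control the differences were 0.025 with quantile normalization, 0.023 after rescaling to TPM and -0.041 to 0.045 with a library left out. The ranges with a library left out were -0.058 to 0.28 for Ntf3 in running against control, -0.024 to 0.037 for Ntrk3 in running against CUS and -0.035 to 0.10 for Vgf in running against control. The cause of these reversals was not tested.

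The count of called genes was unsteady in all 3 comparisons. In CUS against control it was 1, and 0 with at least 1 FPKM in all libraries or with the length and GC trend removed, 8 with library quality weights and 1 to 6 with a library left out. In running against CUS it was 1, and 3 with at least 1 FPKM in all libraries or after rescaling to TPM, 2 with median centring or quantile normalization, 0 with no filter or with the length and GC trend removed, 15 with only the 2 groups compared, 2178 with library quality weights and 0 to 1518 with a library left out. In running against control it was 3, and 6 with the length and GC trend removed, 147 with library quality weights, 1 with no filter, 24 with only the 2 groups compared and 1 to 10 with a library left out. The highest count of the left-out fits in running against CUS, 1518, came without CUS replicate 2. Ntf3 had no value with at least 1 FPKM in all libraries. With 3 libraries per group and unknown depth, small differences of low genes such as Ntf3 and Ngfr could not be resolved.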

Other observations

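A further ligand of the pathway stayed under the filter and was not tested. Ntf5, which encodes neurotrophin-4, had 0.04, 0.08 and 0.16 FPKM in running, 0.25, 0.28 and 0.19 FPKM in CUS and 0.08, 0.39 and 0.24 FPKM in controls. All 3 running libraries were below all 3 CUS libraries, as for 15.9% of the tested genes, while running and control overlapped. The difference in these low values was not tested.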
